A study of Arabidopsis thaliana with 12 samples.

Results

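Proline is made and broken down by a short set of enzymes and moved by dedicated transporters, and 9 Arabidopsis thaliana genes of this pathway were followed here through a response to the hormone abscisic acid (ABA). The 9 genes were taken by their locus identifiers, as genes of the pathway, from a count table of 36796 loci, and all 9 passed the filter on low counts that left 22341 loci for testing. They are P5CS1, P5CS2 and P5CR on the side of synthesis, and OAT, which offers a link from ornithine. PRODH1, PRODH2 and P5CDH are on the side of breakdown, and PROT1 and PROT2 are transporters. Gene positions below are those of the TAIR10.1 annotation.

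All plants were of the accession Col-0, aged 5 to 6 weeks and grown at 22 °C with 12 h of light a day. Rosettes received 50 µM ABA or its ethanol vehicle as a spray, and RNA was taken 4 h later. Polyadenylated RNA was sequenced in 12 libraries, 2 biological replicates in each of 6 groups: wild-type guard cell preparations, whole leaves of the wild type and whole leaves of the abf1/2/3/4 mutant, each sampled with and without ABA. Guard cell RNA came from epidermal fragments isolated from leaves and was extracted with an RNeasy kit, whereas a Spectrum kit served for leaves, so cell type, isolation and kit cannot be told apart in any comparison of guard cell preparations with leaves. The ABF proteins are bZIP transcription factors that bind ABA-responsive promoter elements, and the mutant is labelled by 4 of their genes, with no allele named.

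In plants, proline is made mainly from glutamate. P5C synthetase, encoded by P5CS1 and P5CS2, carries out the committed step, and P5C reductase, encoded by P5CR, completes the path. Ornithine aminotransferase (OAT) offers a link from ornithine in mitochondria, where proline dehydrogenases and P5C dehydrogenase return proline to glutamate. Proline accumulates in leaves under drought and salt stress, and P5CS1 is known as a gene that ABA induces.

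Library totals ran from 25294558 to 47116819 counts, and the biological coefficient of variation over all tested loci was 9.11%. Counts of the 2 replicates of a group differed by more than counting noise, with a chi-square per degree of freedom from 4.48 in guard cell controls to 22.9 in mutant controls. The mutant leaves held less ABF transcript than the wild type for all 4 genes, with log2 differences of -0.84 to -3.70 at control and of -1.45 to -5.36 with ABA, and some reads of each remained. The 8 guard cell markers summed to between 1244 and 1299.7 normalised counts (cpm, reads scaled to a common library size) in guard cell controls. They summed to 434 and 444 cpm in guard cells with ABA, and to between 75.4 and 140.3 cpm in leaves. With ABA in guard cells 6 of these markers were called lower and 2 higher, where 28.5% of all tested loci were called lower and 29.0% higher. In wild-type leaves 4 were lower and 3 higher, beside 33.7% and 27.5% of all loci. In mutant leaves 2 were lower and 3 higher, beside 15.5% and 18.9%. GC1 went from 607 to 29.6 cpm in guard cells and KAT1 there from 168 to 311 cpm, so the sum does not measure purity. Mesophyll markers were not absent from the guard cell preparations: the 5 used here summed to between 11584 and 14289.6 cpm there, against 18525 to 36760.4 cpm in leaves. In whole tissue, fewer cells of a type and less RNA per cell cannot be told apart.

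P5CS1 lies on chromosome 2, P5CS2 and PRODH1 on chromosome 3 and P5CDH on chromosome 5, all on the minus strand. The 250 bases upstream of their annotated starts, from the RefSeq TAIR10.1 assembly, are printed for the 2 members with the highest ABA response, for the gene that starts breakdown and for P5CDH, the member with the longest overlap with a gene on the other strand. Capitals mark matches, on either strand, to 4 short motifs. The core of ABA-responsive elements is searched as ACGTG. The G-box is searched as CACGTG and overlaps it. The element described in Arabidopsis for genes that respond to proline and low osmolarity is searched as ACTCAT. The core of dehydration-responsive elements is searched as CCGAC. The regions are chr2:16603320-16603569 for P5CS1, chr3:20629296-20629545 for P5CS2, chr3:12451557-12451806 for PRODH1 and chr5:25103313-25103562 for P5CDH.
P5CS1: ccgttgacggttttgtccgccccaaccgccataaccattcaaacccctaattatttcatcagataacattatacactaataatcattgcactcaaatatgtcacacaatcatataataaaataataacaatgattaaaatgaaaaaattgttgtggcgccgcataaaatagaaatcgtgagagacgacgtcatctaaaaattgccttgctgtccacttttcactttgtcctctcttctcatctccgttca
P5CS2: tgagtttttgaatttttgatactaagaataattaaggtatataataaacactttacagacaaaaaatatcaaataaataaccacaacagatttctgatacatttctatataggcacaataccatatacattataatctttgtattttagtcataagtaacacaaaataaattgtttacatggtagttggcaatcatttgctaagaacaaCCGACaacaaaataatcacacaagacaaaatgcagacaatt
PRODH1: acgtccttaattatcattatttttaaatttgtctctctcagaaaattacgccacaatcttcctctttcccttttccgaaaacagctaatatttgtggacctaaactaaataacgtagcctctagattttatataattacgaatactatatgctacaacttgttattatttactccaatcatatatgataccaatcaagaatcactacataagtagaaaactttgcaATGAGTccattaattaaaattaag
P5CDH: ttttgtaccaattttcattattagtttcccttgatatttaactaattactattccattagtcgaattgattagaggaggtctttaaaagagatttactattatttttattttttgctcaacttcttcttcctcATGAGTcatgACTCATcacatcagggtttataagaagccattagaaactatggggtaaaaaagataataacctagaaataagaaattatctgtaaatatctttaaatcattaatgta

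The P5CS1 window held none of the 4 motifs, and a window of 1000 bases held none either. P5CS2 had CCGAC with its first base 41 bases before the start. PRODH1 had ACTCAT on the opposite strand, read as ATGAGT, at 24 bases, and P5CDH had it on both strands, at 107 and 117 bases. Of the other 5 genes, P5CR held ACGTG at 51 and CCGAC at 7 bases, PROT1 held ACGTG at 203 bases, and OAT, PRODH2 and PROT2 held none. Of the OAT window, 243 of the 250 bases are exon bases of another locus, and of the PROT2 window 47 are. Among 27443 promoter windows of 250 bases, 22.91% held ACGTG, 6.49% held CACGTG, 12.31% held ACTCAT and 11.97% held CCGAC. In 1000 bases P5CR had 8 matches to ACGTG, P5CS2 and PRODH2 had 4 each, PROT1 had 2, P5CDH and PROT2 had 1 each, and OAT and PRODH1 had none. Strands are counted separately, so each CACGTG, which reads the same on both, gives 2 of these matches. P5CR held 3 CACGTG, and P5CS2 and PRODH2 held 1 each. Of windows of that length, 54.41% hold ACGTG. A match describes letters in a window and does not show a bound site.

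In wild-type leaves ABA raised P5CS1, P5CS2, OAT, P5CDH, PRODH2 and PROT2 and lowered P5CR and PRODH1. Of the 9 genes, 6 rose and 2 fell at an adjusted p under 0.05 in edgeR's quasi-likelihood test, where 61.1% of all tested loci were called, 27.5% higher and 33.7% lower. The median log2 fold change of the 9 was 0.78, against -0.08 over all tested loci. In guard cell preparations 6 of the 9 rose and 1 fell, and 57.5% of all loci were called, 29.0% higher and 28.5% lower. In abf1/2/3/4 leaves 5 rose and 1 fell, and 34.4% of all loci were called, 18.9% higher and 15.5% lower. The median of the 9 was 0.65 in guard cell preparations and 0.39 in mutant leaves, beside -0.02 and 0.01 over all loci.

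**Figure D1:**
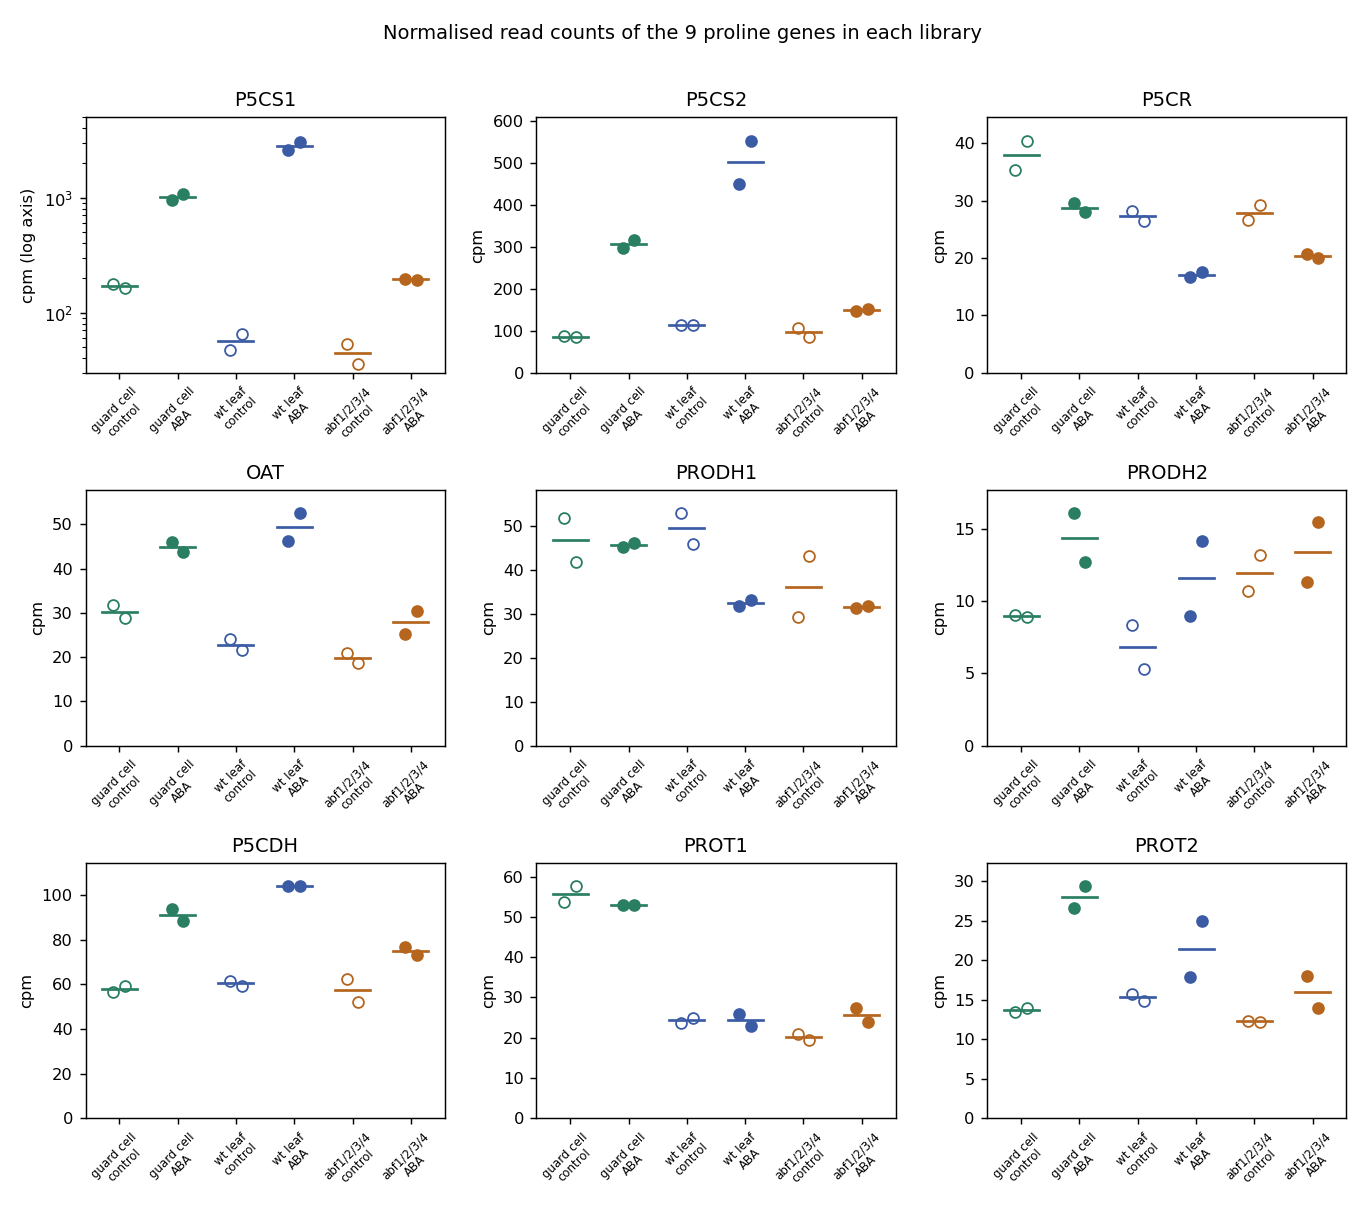
Normalised read counts (cpm, vertical axis, logarithmic for P5CS1 only) of the 9 proline genes in each of the 12 libraries, by group; points are libraries, open for control and filled for ABA, and bars are group means. P5CS1 spans 35.8 to 3019.5 cpm, while P5CR, OAT, PRODH1, PRODH2, PROT1 and PROT2 lie between 5.30 and 57.7 cpm.

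P5CS1 (AT2G39800, chr2:16598072-16603319), the P5C synthetase gene associated with stress, stood at 46.9 and 65.9 cpm in the 2 control libraries of wild-type leaves and at 2585 and 3019.5 cpm with ABA. In mutant leaves it stood at 53.0 and 35.8 cpm at control and at 196 and 194 cpm with ABA. In guard cell preparations it stood at 178 and 163 cpm at control and at 959 and 1077 cpm with ABA. The ABA libraries lay above the controls without overlap in all 3 materials, and wild-type leaves with ABA were the highest of the 6 groups, followed by guard cells with ABA, mutant leaves with ABA and guard cell controls. Only the controls of wild-type and mutant leaves overlapped.

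The P5CS1 level rose 49.6-fold in wild-type leaves (log2 5.63, SE 0.22, 95% interval 5.15 to 6.12, edgeR adjusted p = 5.51e-09), the 151st highest log2 fold change of 22341 loci. The rise was 5.97-fold in guard cell preparations (log2 2.58, SE 0.19, edgeR adjusted p = 6.98e-07) and 4.39-fold in abf1/2/3/4 leaves (log2 2.14, SE 0.19, edgeR adjusted p = 1.87e-05). Per kb of exon, the 2971 bases of P5CS1 carried 19.0 cpm per kb in control wild-type leaves and 943 ± 103 cpm per kb with ABA (SD, n = 2). By this measure it moved from rank 5545 to rank 97 among all tested loci, and in guard cells from rank 1419 to rank 228. In mutant leaves it moved from rank 6941 to rank 1585.

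The difference between the responses was itself tested. The P5CS1 response was smaller in guard cell preparations than in wild-type leaves by a log2 difference of -3.05 (SE 0.26, 95% interval of the difference -3.63 to -2.48, edgeR adjusted p = 4.72e-05). Levels differed in opposite directions before and after treatment: P5CS1 was 3.02-fold higher in guard cells than in leaves at control (log2 1.59, SE 0.19, edgeR adjusted p = 2.07e-05) and 2.75-fold lower with ABA (log2 -1.46, SE 0.18, edgeR adjusted p = 3.79e-05). The response was also smaller in abf1/2/3/4 leaves than in wild-type leaves, by a log2 difference of -3.50 (SE 0.26, edgeR adjusted p = 5.79e-06). With ABA the mutant level was 14.4-fold lower than the wild-type level (log2 -3.84, SE 0.20, edgeR adjusted p = 8.85e-08). At control the mutant and wild-type levels differed by log2 -0.35 (95% interval -0.76 to 0.06, edgeR adjusted p = 0.194). Without replicate 1 of the mutant controls, that control difference was -0.66 with an adjusted p of 0.0203.

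P5CS2 (AT3G55610, chr3:20624020-20629295), the second P5C synthetase gene, associated with growth, had 115 and 113 cpm in control wild-type leaves and 450 and 553 cpm with ABA. Mutant leaves had 106 and 86.3 cpm at control and 146 and 153 cpm with ABA. Guard cell preparations had 86.5 and 84.3 cpm at control and 296 and 316 cpm with ABA. As for P5CS1, no ABA library overlapped a control library of the same material.

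P5CS2 rose 4.40-fold in wild-type leaves (log2 2.14, SE 0.11, edgeR adjusted p = 5.14e-08), 3.58-fold in guard cells (log2 1.84, SE 0.11, edgeR adjusted p = 1.65e-07) and 1.56-fold in mutant leaves (log2 0.64, SE 0.11, edgeR adjusted p = 0.00122). The mutant response was smaller than that of wild-type leaves by a log2 difference of -1.50 (SE 0.16, edgeR adjusted p = 4.13e-05). For guard cells the corresponding difference was -0.30 (95% interval -0.64 to 0.04, edgeR adjusted p = 0.229), which missed the threshold. P5CS2 was lower in guard cells than in leaves at control, by log2 -0.42 (SE 0.11, edgeR adjusted p = 0.00663), and with ABA, by log2 -0.71 (SE 0.11, edgeR adjusted p = 0.000177). The control difference was not called with total-count scaling, where it was -0.03 (adjusted p = 0.821), nor with upper quartile scaling (adjusted p = 0.0509). Between mutant and wild-type leaves at control, P5CS2 differed by log2 -0.25 (SE 0.11, edgeR adjusted p = 0.12), and without replicate 1 of the mutant controls by -0.40 (adjusted p = 0.0237).

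Within a library the ratio of P5CS1 to P5CS2 per kb of exon needs no scaling between libraries. In wild-type leaves it went from 0.381 and 0.549 at control to 5.39 and 5.12 with ABA, so P5CS2 was the more abundant transcript before treatment and P5CS1 after it. In mutant leaves the ratio went from 0.470 and 0.389 to 1.26 and 1.19. In guard cell preparations P5CS1 already exceeded P5CS2 at control, at 1.93 and 1.81, and the ratio was 3.04 and 3.20 with ABA. No stretch of 50 exon bases of either gene occurs elsewhere in the genome. P5CS1 shares 85 exon bases with AT2G39795 and P5CS2 shares 32 with AT3G55605, both on the opposite strand, and reads there cannot be told apart.

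**Figure D2:**
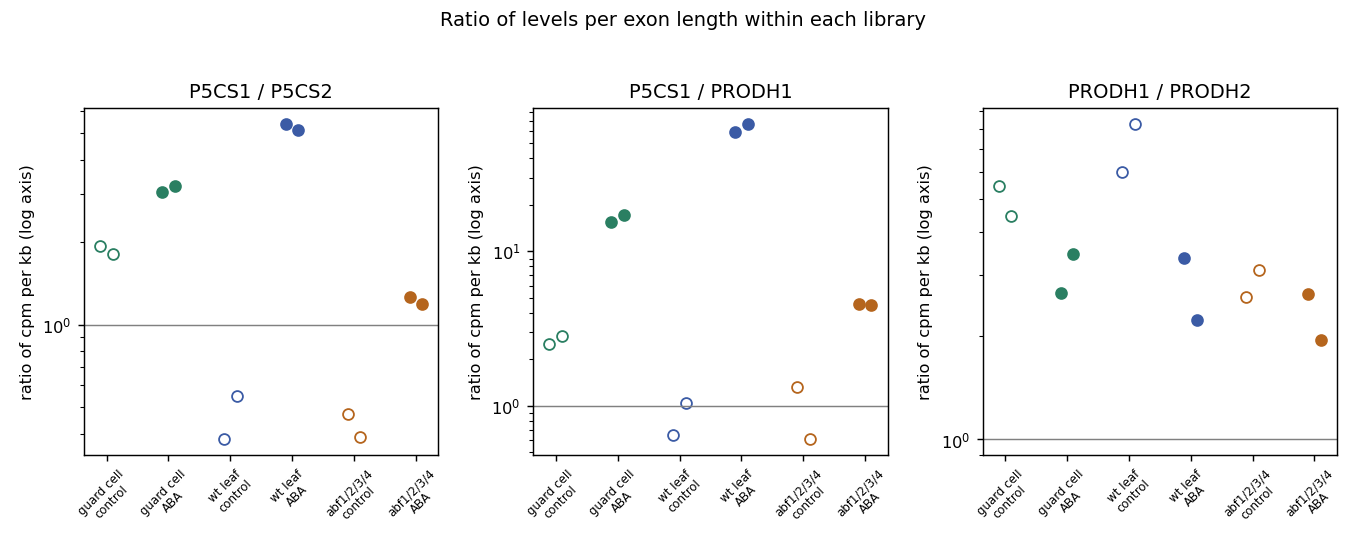
Ratios of levels per kb of exon (vertical axes, logarithmic) of P5CS1 to P5CS2, P5CS1 to PRODH1 and PRODH1 to PRODH2 in each library; points are libraries and the grey line marks equal levels. The P5CS1 to P5CS2 ratio lies under 1 in the 4 leaf controls and over 1 in the other 8 libraries.

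P5CR (AT5G14800, chr5:4785960-4787996), the reductase of the last step, moved against the synthetases. Wild-type leaves had 28.3 and 26.4 cpm at control and 16.7 and 17.5 cpm with ABA, and mutant leaves had 26.6 and 29.3 cpm at control and 20.8 and 20.1 cpm with ABA. Guard cell preparations had 35.4 and 40.5 cpm at control and 29.6 and 28.0 cpm with ABA. ABA libraries lay under their controls in all 3 materials.

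The P5CR level fell in wild-type leaves (log2 -0.67, SE 0.09, edgeR adjusted p = 4.29e-05), in guard cells (log2 -0.40, SE 0.08, edgeR adjusted p = 0.00196) and in mutant leaves (log2 -0.45, SE 0.09, edgeR adjusted p = 0.00234). Neither difference between responses was called: guard cells differed from wild-type leaves by 0.28 (95% interval 0.01 to 0.54, edgeR adjusted p = 0.151) and the mutant by 0.23 (95% interval -0.04 to 0.49, edgeR adjusted p = 0.179). P5CR was higher in guard cells than in leaves, by log2 0.47 at control (SE 0.08, edgeR adjusted p = 0.000458) and 0.75 with ABA (SE 0.09, edgeR adjusted p = 2.17e-05). Of its 50-base stretches 17.8% also occur elsewhere in the genome, so part of its counts may belong to other loci. The ratio of P5CS1 to P5CR per kb of exon went from 0.806 and 1.21 to 75.0 and 84.0 in wild-type leaves with ABA, from 2.44 and 1.95 to 15.7 and 18.7 in guard cells, and from 0.966 and 0.594 to 4.57 and 4.70 in mutant leaves.

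OAT (AT5G46180, chr5:18718417-18721744), the ornithine aminotransferase, had 24.1 and 21.5 cpm in control wild-type leaves and 46.3 and 52.5 cpm with ABA. Mutant leaves had 20.8 and 18.6 cpm at control and 25.3 and 30.5 cpm with ABA. Guard cell preparations had 31.7 and 28.8 cpm at control and 46.1 and 43.8 cpm with ABA. Each ABA library exceeded both controls of its material, and guard cells with ABA lay close to wild-type leaves with ABA.

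OAT rose 2.17-fold in wild-type leaves (log2 1.12, SE 0.11, edgeR adjusted p = 4.87e-06). It rose 1.49-fold in guard cells (log2 0.57, SE 0.11, edgeR adjusted p = 0.000897) and 1.41-fold in mutant leaves (log2 0.49, SE 0.11, edgeR adjusted p = 0.00606). The response of the mutant was smaller than that of wild-type leaves by a log2 difference of -0.62 (SE 0.16, edgeR adjusted p = 0.00933). The response of guard cells was smaller by -0.55 (SE 0.15, edgeR adjusted p = 0.0352), a call lost when any guard cell library, replicate 2 of the wild-type controls or replicate 2 of the wild-type ABA leaves was left out (adjusted p 0.0596 to 0.13). The guard cell response itself was not called with total-count scaling (adjusted p = 0.0608), and the mutant response was not called in a fit of the mutant libraries alone (adjusted p = 0.0592) or without replicate 2 of the mutant ABA leaves (adjusted p = 0.0544).

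**Figure D3:**
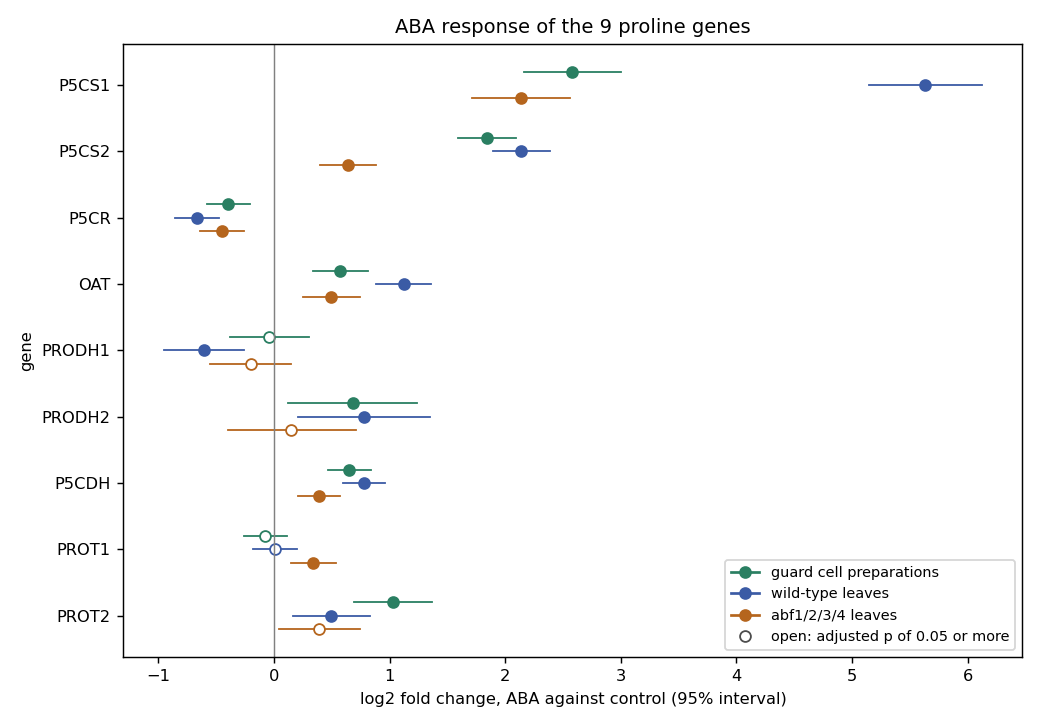
Log2 fold change of ABA against control (horizontal axis) for each of the 9 genes in leaves of both genotypes and in guard cell preparations, with 95% intervals from edgeR; filled points passed an adjusted p of 0.05. P5CS1 in wild-type leaves, at 5.63, stands apart from the other values, which lie between -0.67 and 2.58.

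PRODH1 (AT3G30775, chr3:12448636-12451556), the proline dehydrogenase that starts breakdown in mitochondria, is known from work in Arabidopsis to be repressed under water deficit and induced by proline. It stood at 52.9 and 46.0 cpm in control wild-type leaves and at 31.8 and 33.1 cpm with ABA, without overlap. In mutant leaves it stood at 29.2 and 43.2 cpm at control and at 31.4 and 31.7 cpm with ABA, and the ABA libraries lay between the controls. In guard cell preparations it stood at 51.9 and 41.8 cpm at control and at 45.2 and 46.2 cpm with ABA, again between the controls.

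PRODH1 fell in wild-type leaves 1.52-fold (log2 -0.61, SE 0.15, edgeR adjusted p = 0.00558). In guard cells the log2 fold change was -0.04 (95% interval -0.38 to 0.30, edgeR adjusted p = 0.854), and in mutant leaves it was -0.20 (95% interval -0.55 to 0.15, edgeR adjusted p = 0.371). These fits do not show that the responses differ: guard cells against wild-type leaves gave a difference of 0.57 (95% interval 0.09 to 1.05, edgeR adjusted p = 0.108) and the mutant against the wild type one of 0.41 (95% interval -0.08 to 0.90, edgeR adjusted p = 0.181). The guard cell difference was called in a fit of the guard cell and wild-type leaf libraries alone (adjusted p = 0.0206), with no filter beyond 1 count (adjusted p = 0.0423), and without either mutant control (adjusted p = 0.0148). The mutant values turn on which control is kept, with a log2 fold change of -0.45 without replicate 1 (adjusted p = 0.0132) and 0.11 without replicate 2 (adjusted p = 0.552). Without that second control the genotype difference in response was 0.72 and the control difference between genotypes was -0.76. With all libraries that control difference was -0.45 (SE 0.16, edgeR adjusted p = 0.0534). It was called with upper quartile scaling (edgeR adjusted p = 0.0399), with no filter beyond 1 count (edgeR adjusted p = 0.0131) and with DESeq2 (DESeq2 adjusted p = 0.0438). With ABA, PRODH1 was higher in guard cells than in wild-type leaves, by log2 0.49 (SE 0.16, edgeR adjusted p = 0.0172), a call lost without any of the 4 libraries compared (adjusted p 0.0521 to 0.0727). At control the difference was -0.08 (95% interval -0.41 to 0.26, edgeR adjusted p = 0.679), and it turned positive with total-count or upper quartile scaling.

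PRODH2 (AT5G38710, chr5:15501126-15504269), the less abundant proline dehydrogenase gene, had 8.36 and 5.30 cpm in control wild-type leaves and 8.97 and 14.2 cpm with ABA. Guard cell preparations had 9.07 and 8.94 cpm at control and 16.1 and 12.7 cpm with ABA. Mutant leaves had 10.7 and 13.2 cpm at control and 11.3 and 15.5 cpm with ABA, groups that overlap. It was the lowest member per kb of exon in 5 of the 6 groups.

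PRODH2 rose by log2 0.78 in wild-type leaves (SE 0.26, edgeR adjusted p = 0.0214) and by 0.68 in guard cells (SE 0.25, edgeR adjusted p = 0.0401), opposite in sign to PRODH1 in wild-type leaves. The guard cell value was 0.70 without replicate 1 of the controls and 0.67 without replicate 2. Neither call held in every fit that left out a library. In wild-type leaves it was lost without replicate 2 of the controls (adjusted p = 0.18) or of the ABA leaves (adjusted p = 0.261), and with total-count scaling (adjusted p = 0.0522). In guard cells it was lost without either control (adjusted p 0.115 and 0.134), without replicate 1 of the ABA preparations (adjusted p = 0.22), and with upper quartile or total-count scaling (adjusted p 0.0749 and 0.225). In mutant leaves the change was 0.15 (95% interval -0.40 to 0.71, edgeR adjusted p = 0.682). PRODH2 was the only member called between the genotypes at control, higher in the mutant by log2 0.81 (SE 0.26, edgeR adjusted p = 0.0407), where 26.5% of all loci were called (12.1% higher and 14.4% lower), and without replicate 2 of the wild-type controls that difference was 0.52 (adjusted p = 0.251). The call was also lost without replicate 2 of the mutant controls (adjusted p = 0.156), without any 1 of the guard cell libraries (adjusted p 0.0512 to 0.0606) and with only the libraries compared (adjusted p = 0.0943). The PRODH1 to PRODH2 ratio per kb of exon was 6.01 and 8.26 in control wild-type leaves and 3.37 and 2.23 with ABA, against 2.59 and 3.10 and then 2.64 and 1.94 in mutant leaves. Guard cells went from 5.44 and 4.45 to 2.67 and 3.46.

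P5CDH (AT5G62530, chr5:25099003-25103312), the dehydrogenase that turns P5C into glutamate, had 61.5 and 59.4 cpm in control wild-type leaves and 104 cpm in both ABA libraries. Mutant leaves had 62.4 and 52.0 cpm at control and 76.7 and 73.3 cpm with ABA, and guard cell preparations had 56.7 and 59.0 cpm at control and 93.7 and 88.5 cpm with ABA. The mutant controls spanned those of both other materials, wild-type leaf controls lay slightly above guard cell controls, and every ABA library lay above every control.

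P5CDH rose 1.72-fold in wild-type leaves (log2 0.78, SE 0.08, edgeR adjusted p = 9.46e-06), 1.57-fold in guard cells (log2 0.65, SE 0.08, edgeR adjusted p = 4.81e-05) and 1.31-fold in mutant leaves (log2 0.39, SE 0.08, edgeR adjusted p = 0.00403). In a fit of the mutant libraries alone the mutant rise was not called (adjusted p = 0.0637). The mutant response was smaller than that of wild-type leaves by a log2 difference of -0.39 (SE 0.12, edgeR adjusted p = 0.0235), a call lost in 5 of the 12 fits that left out a library: replicate 2 of the wild-type controls, either wild-type ABA library, replicate 1 of the mutant controls or replicate 2 of the mutant ABA leaves (adjusted p 0.0519 to 0.0774). Its lowest size there was -0.25, without replicate 1 of the mutant controls. With ABA the mutant level was lower than the wild-type level by log2 -0.47 (SE 0.08, edgeR adjusted p = 0.000553).

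P5CDH lies on the minus strand of chromosome 5 and overlaps SRO5, a gene on the plus strand with which it is known in Arabidopsis to form a natural antisense pair. The annotation gives them 811 shared exon bases, 31.3% of those of P5CDH and 45.5% of those of SRO5. The library kit named in the labels does not mark strand, so reads from the shared stretch cannot be assigned to either gene. SRO5 had 15.3 and 13.0 cpm in control wild-type leaves and 24.2 and 24.4 cpm with ABA. It rose beside P5CDH in wild-type leaves (log2 0.78, edgeR adjusted p = 3.24e-05), in guard cells (log2 0.61, edgeR adjusted p = 0.00022) and in mutant leaves (log2 0.38, edgeR adjusted p = 0.0131). How much of either rise comes from the shared stretch was not tested.

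PROT1 (AT2G39890, chr2:16655577-16658412) and PROT2 (AT3G55740, chr3:20695433-20698292) encode proline transporters of the plasma membrane. PROT1 had 23.7 and 24.9 cpm in control wild-type leaves and 26.0 and 23.0 cpm with ABA, 21.0 and 19.5 and then 27.3 and 24.0 cpm in mutant leaves, and 53.8 and 57.7 and then 52.9 and 52.9 cpm in guard cell preparations. Every guard cell library lay above every leaf library.

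PROT1 was 2.29-fold higher in guard cells than in wild-type leaves at control (log2 1.20, SE 0.09, edgeR adjusted p = 4.2e-07) and 2.16-fold higher with ABA (log2 1.11, SE 0.09, edgeR adjusted p = 1.04e-06). Its response to ABA was -0.08 in guard cells (95% interval -0.26 to 0.11, edgeR adjusted p = 0.457) and 0.01 in wild-type leaves (95% interval -0.18 to 0.20, edgeR adjusted p = 0.933), the latter turning negative with total-count or upper quartile scaling. With total-count scaling the guard cell value was -0.38 and was called (adjusted p = 0.00137). In mutant leaves PROT1 rose by log2 0.34 (SE 0.09, edgeR adjusted p = 0.0124), a call lost with total-count scaling (adjusted p = 0.103), in a fit of the mutant libraries alone (adjusted p = 0.0889), and without control replicate 2 (adjusted p = 0.0659) or ABA replicate 1 (adjusted p = 0.118). The genotype difference in response was 0.33 (95% interval 0.06 to 0.61, edgeR adjusted p = 0.0594), and it was called with upper quartile scaling (adjusted p = 0.0423) and without replicate 1 of the wild-type ABA leaves, replicate 1 of the mutant controls or replicate 2 of the mutant ABA leaves (adjusted p 0.0324 to 0.0429).

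Markers of the vasculature were higher in guard cell preparations than in wild-type leaves, as PROT1 was. All 8 guard cell markers were higher there too, at control and with ABA. All 5 mesophyll markers were lower there in both conditions. Of the 5 epidermis markers 2 were higher and 1 lower at control, and 3 were lower with ABA. Among all tested loci 30.2% were called higher and 32.6% lower at control, and 32.7% and 31.9% with ABA. All 5 vascular markers on the list were higher in guard cell preparations than in wild-type leaves, with sums of 6386 and 6525 cpm at control and 9185 and 9186 cpm with ABA, against 1314 to 1487 cpm in wild-type leaves and 856 to 929.5 cpm in mutant leaves. None of these markers was at or near 0 in any library. The part of these lists in the higher guard cell levels of PROT1 and P5CR, and of P5CS1 and OAT at control, was not tested.

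PROT2 had 15.7 and 14.9 cpm in control wild-type leaves and 17.9 and 25.0 cpm with ABA, 12.3 and 12.2 and then 18.0 and 14.0 cpm in mutant leaves, and 13.4 and 14.0 and then 26.6 and 29.4 cpm in guard cells. ABA libraries exceeded controls in each material. PROT2 rose 2.04-fold in guard cells (log2 1.03, SE 0.15, edgeR adjusted p = 0.000164) and 1.41-fold in wild-type leaves (log2 0.49, SE 0.15, edgeR adjusted p = 0.0142). The leaf call was lost with total-count scaling (adjusted p = 0.0566) and without replicate 2 of the controls (adjusted p = 0.077) or of the ABA leaves (adjusted p = 0.212). In mutant leaves the change was 0.39 (95% interval 0.04 to 0.74, edgeR adjusted p = 0.0776), and it was called with no filter beyond 1 count (adjusted p = 0.0389), without either wild-type ABA library, or without replicate 2 of the mutant ABA leaves (0.55, adjusted p = 0.0384).

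The PROT2 response of guard cells differed from that of wild-type leaves by 0.54 (95% interval 0.06 to 1.01, edgeR adjusted p = 0.12), and without replicate 2 of the wild-type ABA leaves by 0.81 (adjusted p = 0.0261). The PROT1 to PROT2 ratio per kb of exon was 4.47 and 4.59 in guard cell controls and 2.21 and 2.00 with ABA. In wild-type leaves it was 1.68 and 1.86 at control and 1.62 and 1.03 with ABA.

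**Figure D4:**
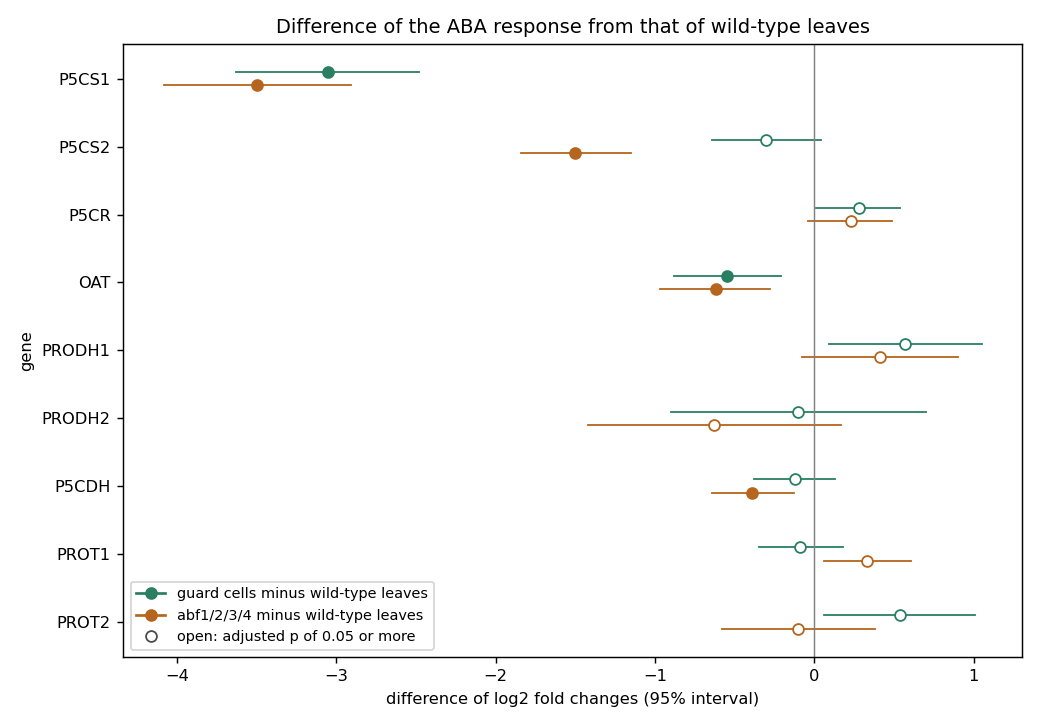
Difference of the ABA response from that of wild-type leaves (horizontal axis, difference of log2 fold changes with 95% intervals from edgeR) for guard cell preparations and abf1/2/3/4 leaves; filled points passed an adjusted p of 0.05. P5CS1 lies at -3.05 and -3.50 in both, and P5CS2 at -1.50 for the mutant against -0.30 for guard cells.

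Across the 9 genes, the response differed between guard cells and wild-type leaves for P5CS1 and OAT, both smaller in guard cells, where 15.0% of all loci were called, 9.87% higher and 5.18% lower. The response differed between genotypes for P5CS1, P5CS2, P5CDH and OAT, all smaller in the mutant, where 35.1% of all loci were called, 20.1% higher and 15.1% lower. Both comparisons use the same wild-type leaf libraries. The median difference of the 9 was -0.10 for guard cells and -0.39 for the mutant, beside 0.07 and 0.06 over all loci. None of the 9 had a response called larger than that of wild-type leaves in either comparison.

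Marker lists of leaf cell types moved with ABA by material as well. The 5 epidermis markers summed to 440.4 and 430.1 cpm in control wild-type leaves and to 883 and 918 cpm with ABA, with 4 of 5 called higher, 1 lower and a median log2 fold change of 1.24. In mutant leaves they went from 403 and 373 to 485 and 524 cpm, with 3 of 5 higher and a median of 0.50, and in guard cells from 847 and 774 to 759.6 and 783 cpm, with 2 higher, 2 lower and a median of -0.03. The 5 mesophyll markers fell for 4 of 5 in wild-type leaves (median -1.02), with sums from 34629 and 36760.4 to 22469 and 18525 cpm. In mutant leaves 1 mesophyll marker was higher and 1 lower (median 0.05), and in guard cells 2 were lower (median -0.17). Beside these counts, 27.5% of all tested loci were called higher with ABA and 33.7% lower for leaves of the wild type. For guard cells the shares were 29.0% and 28.5%, and for the mutant 18.9% and 15.5%. The difference of the response from that of wild-type leaves was called negative for 4 of 5 epidermis markers in guard cells. In the mutant it was negative for 3 of 5 and positive for 1. Of the 8 guard cell markers, 7 were called negative in guard cells, and in the mutant 5 were positive and 1 negative. The difference was positive for 2 of 5 mesophyll markers in guard cells and for all 5 in the mutant. Of the 5 vascular markers, 1 was called positive in guard cells, and in the mutant 1 was positive and 1 negative. Among all tested loci 9.87% were called positive and 5.18% negative in guard cells, and 20.1% and 15.1% in the mutant. For P5CS1 and OAT the difference was negative in guard cells and in the mutant. In wild-type leaves FDH went from 167 to 392 cpm and CER5 from 127 to 366 cpm, while PDF2 fell from 74.2 to 39.1 cpm. Marker genes can themselves respond to ABA, so these values do not measure shares of cell types. The part of these lists in the differences of the proline genes was not tested.

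Levels of the 9 genes differed between guard cells and wild-type leaves for 5 members at control, 4 higher and 1 lower, where 62.8% of all loci were called (30.2% higher and 32.6% lower), and for 6 with ABA, 4 higher and 2 lower, where 64.6% were called (32.7% higher and 31.9% lower). P5CR and PROT1 were higher in guard cells in both conditions. OAT was higher at control (log2 0.41, SE 0.11, edgeR adjusted p = 0.00689), a call lost without replicate 1 of the guard cell controls or replicate 2 of the wild-type controls (adjusted p 0.0649 and 0.0632). With ABA the OAT difference was -0.14 (95% interval -0.37 to 0.10, edgeR adjusted p = 0.273), which turned positive with total-count scaling. PROT2 was higher with ABA by log2 0.38 (SE 0.15, edgeR adjusted p = 0.0438), a call lost in 7 of the 12 fits that left out a library, with the lowest value, 0.16, without replicate 1 of the wild-type ABA leaves (adjusted p = 0.325), and lost with RLE scaling, with DESeq2 and in a fit restricted to the 4 libraries involved.

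Between mutant and wild-type leaves with ABA, 5 members were lower in the mutant and 1, P5CR, was higher, where 57.3% of all loci were called, 26.6% lower and 30.7% higher. The lower members were P5CS1, P5CS2, OAT, P5CDH and PROT2. OAT was 1.78-fold lower (log2 -0.83, SE 0.11, edgeR adjusted p = 6.43e-05). PROT2 was lower by log2 -0.42 (SE 0.15, edgeR adjusted p = 0.033) and P5CR higher by 0.26 (SE 0.09, edgeR adjusted p = 0.0257). Neither call held in every fit that left out a library, though the P5CR difference stayed between 0.23 and 0.29 in those fits. PROT2 was not called without replicate 2 of the wild-type ABA leaves (-0.15, adjusted p = 0.409) or of the mutant ABA leaves (-0.26, adjusted p = 0.225), and P5CR was not called without any 1 of the 4 libraries (adjusted p 0.0542 to 0.119) or with DESeq2 (adjusted p = 0.177). The PROT2 call was also lost with total-count scaling (edgeR adjusted p = 0.101), and the P5CR call with RLE scaling (edgeR adjusted p = 0.0814). With only the libraries compared, neither was called (edgeR adjusted p = 0.0507 for PROT2 and 0.0627 for P5CR). PRODH1 stood almost level, at log2 -0.04 (95% interval -0.39 to 0.30, edgeR adjusted p = 0.835), and turned to 0.07 with total-count scaling.

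P5CS1 had the largest rise of the synthesis genes in wild-type leaves, and PRODH1 was the only breakdown gene that fell. PRODH2 and P5CDH rose there (log2 0.78 each) and P5CR fell (log2 -0.67), so a single pair does not give the balance of the pathway. For this pair alone, the ratio of P5CS1 to PRODH1 per kb of exon was followed. It went from 0.649 and 1.05 to 59.5 and 66.7 in wild-type leaves, from 2.51 and 2.85 to 15.5 and 17.1 in guard cells and from 1.33 and 0.607 to 4.56 and 4.50 in mutant leaves. Control leaves of both genotypes lay on either side of 1, while guard cell controls already lay above it. The ratio of P5CS1 to P5CDH went from 0.664 and 0.967 to 21.7 and 25.4 in wild-type leaves, from 2.74 and 2.40 to 8.93 and 10.6 in guard cells, and from 0.740 and 0.600 to 2.22 and 2.31 in mutant leaves. Transcript ratios do not measure enzyme or proline amounts, which were not part of the data.

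Per kb of exon, the order of mean levels in control wild-type leaves was P5CS2 at 40.9 cpm per kb, P5CDH at 23.4, PRODH1 at 22.7, P5CS1 at 19.0, P5CR at 18.9, PROT1 at 11.4, OAT at 10.1, PROT2 at 6.45 and PRODH2 at 3.30. In guard cell controls P5CS1 led at 57.4 cpm per kb, ahead of P5CS2 at 30.7. With ABA, P5CS1 led in all 3 materials, at 943 cpm per kb in wild-type leaves, 343 in guard cells and 65.7 in mutant leaves, and P5CS2 followed at 180.0, 109.8 and 53.7. P5CR moved from the third place in guard cell controls to the seventh with ABA, at 26.3 and 20.0 cpm per kb.

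Of the 18629 loci averaging at least 50 counts, those whose log2 cpm over the 12 libraries was most like that of P5CS1 were MIPS2 (Pearson r = 0.9935), QWRF8 (r = 0.9883), AT1G17940 (r = 0.9879), FAD2 (r = 0.9859) and BDG1 (r = 0.9857). MIPS2, an inositol phosphate synthase gene, averaged 10.2 cpm in control wild-type leaves and 150.4 cpm with ABA, 9.34 and 20.7 cpm in mutant leaves, and 20.0 and 58.3 cpm in guard cells. FAD2, an oleate desaturase gene, averaged 381 and 765 cpm in wild-type leaves, a smaller change. For PRODH1 the nearest loci were AT2G31090 (r = 0.8960), AT2G17975 (r = 0.8907), AT1G48550 (r = 0.8872), DPL1 (r = 0.8857) and OPT6 (r = 0.8730). The libraries fall into 6 groups and are not independent points, so these values are a description.

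Genes of neighbouring pathways were counted from 4 lists. Among 11 relatives and carriers of proline and other amino acids, 10 were tested, since AAP8 had at most 1 count in any library. Of these 10, 4 rose and 3 fell in wild-type leaves, 5 rose and 3 fell in guard cells, and 2 rose and 4 fell in mutant leaves. Over all loci 27.5% rose and 33.7% fell in wild-type leaves, 29.0% and 28.5% in guard cells, and 18.9% and 15.5% in mutant leaves. The median log2 fold changes were 0.04, 0.15 and 0.09, near the medians over all loci of -0.08, -0.02 and 0.01.

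BAC2, a mitochondrial carrier of basic amino acids, had 0.444 and 0.544 cpm in control wild-type leaves and 11.7 and 15.9 cpm with ABA, and 0.919 and 0.587 and then 18.4 and 21.2 cpm in guard cells. Mutant leaves had 0.383 and 0.447 cpm at control and 0.694 and 0.400 cpm with ABA, so only there did the groups overlap. BAC2 rose by log2 4.79 in wild-type leaves (SE 0.25, edgeR adjusted p = 4.9e-08) and by 4.73 in guard cells (SE 0.24, edgeR adjusted p = 3.89e-08). In mutant leaves the change was 0.47 (edgeR adjusted p = 0.414), a difference from the wild type of -4.32 (SE 0.55, edgeR adjusted p = 0.000154). Guard cells and wild-type leaves differed in BAC2 response by -0.07 (SE 0.38, edgeR adjusted p = 0.931).

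AAP1, an amino acid permease gene, rose in wild-type leaves from 54.4 ± 2.08 to 401 ± 19.4 cpm (SD, n = 2), in guard cells from 334 ± 39.4 to 2168 ± 30.4 cpm and in mutant leaves from 51.3 ± 12.1 to 116 ± 5.49 cpm. Its response was smaller in the mutant, by -1.70 (SE 0.19, edgeR adjusted p = 7.05e-05). AAP6, another permease gene, fell in wild-type leaves (log2 -3.35, SE 0.26, edgeR adjusted p = 7.85e-07) and in guard cells (log2 -2.53, SE 0.22, edgeR adjusted p = 3.1e-06), and AAP3 fell by 1.39 on the log2 scale in mutant leaves (SE 0.30, edgeR adjusted p = 0.00503). PROT3, the remaining proline transporter gene of the family, rose in wild-type leaves (log2 1.59, edgeR adjusted p = 0.000326) and in guard cells (log2 1.42, edgeR adjusted p = 0.000729), and in mutant leaves its change was 0.68 (edgeR adjusted p = 0.0985).

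The 15 genes listed for arginine and ornithine supply also include steps that use ornithine or lie beside its synthesis. In wild-type leaves 3 were higher and 10 lower, with a median log2 fold change of -0.44. Over all loci 27.5% were higher and 33.7% lower, with a median of -0.08. In guard cells 3 were higher and 5 lower (median -0.08), beside 29.0% and 28.5% of all loci (median -0.02). In mutant leaves 3 were higher and 4 lower (median -0.10), beside 18.9% and 15.5% of all loci (median 0.01). ARGAH2, an arginase gene whose product releases ornithine, rose by log2 2.77 in wild-type leaves (SE 0.42, edgeR adjusted p = 0.000145), 3.04 in guard cells (SE 0.43, edgeR adjusted p = 0.000116) and 2.19 in mutant leaves (SE 0.41, edgeR adjusted p = 0.00189). The 2 mutant controls of ARGAH2 stood apart, at 525 and 168 cpm. NAGS2, an N-acetylglutamate synthase gene at the entry of ornithine synthesis, fell in wild-type leaves (log2 -2.65, SE 0.16, edgeR adjusted p = 1.05e-07), in guard cells (log2 -1.81, SE 0.16, edgeR adjusted p = 3.41e-06) and in mutant leaves (log2 -1.71, SE 0.15, edgeR adjusted p = 1.77e-05).

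Of 11 genes of glutamate supply and use, 3 rose and 5 fell in wild-type leaves, 4 rose and 4 fell in guard cells, and 2 rose and 3 fell in mutant leaves, where 61.1%, 57.5% and 34.4% of all loci were called. Their median log2 fold changes were -0.31, 0.15 and 0.00, beside -0.08, -0.02 and 0.01 over all loci. GLN1;3, a cytosolic glutamine synthetase gene, rose from 16.4 ± 1.06 to 62.7 ± 3.78 cpm in wild-type leaves (SD, n = 2). Its response was smaller in guard cells by -1.48 (SE 0.14, edgeR adjusted p = 8.63e-05) and in the mutant by -1.17 (SE 0.14, edgeR adjusted p = 0.000126). GLN1;4, of the same family, fell in wild-type leaves (log2 -2.30, SE 0.16, edgeR adjusted p = 4.62e-07) and in guard cells (log2 -2.43, SE 0.17, edgeR adjusted p = 4.59e-07). GDH2, a glutamate dehydrogenase gene, rose in guard cells by log2 1.01 (SE 0.11, edgeR adjusted p = 1.36e-05), more than in wild-type leaves by 0.81 (SE 0.15, edgeR adjusted p = 0.00637).

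The fourth list held 8 bZIP genes, several of which are known in Arabidopsis as regulators of PRODH1 under low energy or low osmolarity, and SRO5. In wild-type leaves and in guard cells 4 of these 9 rose and 3 fell, and in mutant leaves 2 rose and 3 fell, beside 61.1%, 57.5% and 34.4% of all loci called in the 3 materials. The list's median log2 fold changes were 0.20, 0.30 and -0.06. bZIP53 rose by log2 1.06 in wild-type leaves (SE 0.09, edgeR adjusted p = 1.35e-06) and by 1.24 in guard cells (SE 0.09, edgeR adjusted p = 4.33e-07). bZIP63 fell from 59.2 ± 2.20 to 10.6 ± 0.148 cpm in wild-type leaves (SD, n = 2; edgeR adjusted p = 7.71e-08) and from 44.7 ± 6.48 to 5.67 ± 0.0615 cpm in guard cells (edgeR adjusted p = 4.1e-08). Its fall was smaller in mutant leaves, where it went from 36.4 ± 6.45 to 18.5 ± 2.42 cpm, with a difference in log2 response of 1.51 (SE 0.19, edgeR adjusted p = 0.00015).

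**Figure D5:**
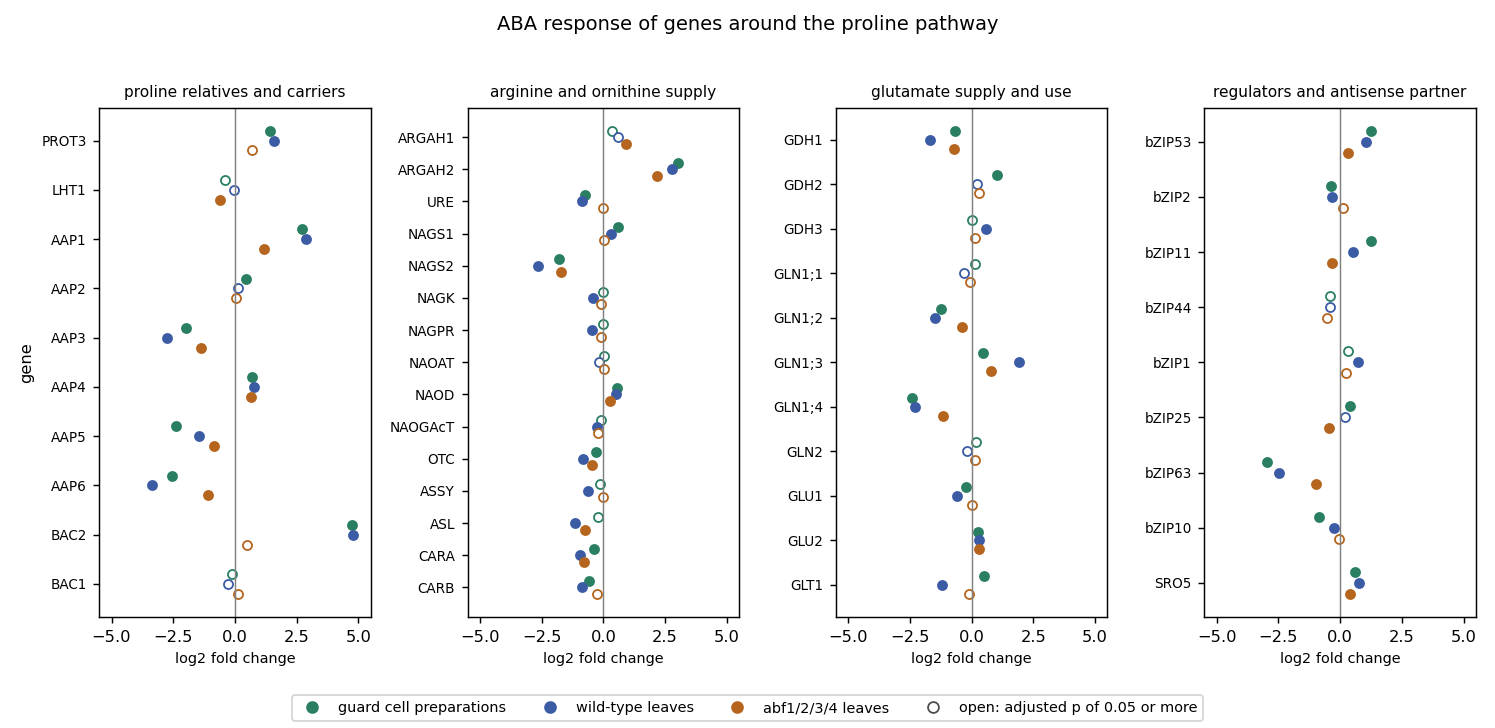
Log2 fold change of ABA against control (horizontal axes) for the genes of the 4 neighbouring lists in leaves of both genotypes and in guard cell preparations; filled points passed an adjusted p of 0.05 in edgeR. BAC2 lies at 4.73 and 4.79 in the wild type and at 0.47 in the mutant, while ARGAH2 lies between 2.19 and 3.04 in all 3 materials.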

How the data were processed

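As deposited by the authors, the values are raw counts of reads for each locus, not normalized, in 1 column per library. Per the submitters' processing notes, the steps used Trim Galore 0.6.5, cutadapt, FastQC, SAMtools, featureCounts and DESeq2 1.26.0 with the build TAIR10; the aligner, the annotation release and the counting settings are not given in the sources used here. Loci passing edgeR's filterByExpr at a minimum count of 10 were scaled by TMM and fitted together as 6 group means (edgeR 4.0.16, R 4.3.3, 6 residual degrees of freedom), with quasi-likelihood F-tests, two-sided, for 9 comparisons and Benjamini-Hochberg adjustment over all 22341 tested loci in each. Cpm used TMM-scaled totals, and levels per kb the union of annotated exons in TAIR10.1, which gave all 22341 tested loci a length. Counts were also simulated for the 22341 loci, with changes placed in wild-type leaves with ABA, only in loci averaging at least 100 counts. Of 67 loci changed 1.5-fold 62.7% were called, of 67 changed 2-fold 89.6%, and of 66 changed 4-fold 100%. All other loci were left unchanged, whereas 61.1% were called in the data, so these are not the detection rates of the comparisons above.

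The series describes the replicates as biological. Members and lists were chosen with earlier results of these data known. Text names all 9 members, SRO5, the genes of each list with the largest and smallest called change in each ABA comparison, and the 5 loci closest to P5CS1 and to PRODH1; PROT3 and the other values of genes so named were added as context after their values were seen, as was the 1000-base promoter window. Marker lists for guard cells, mesophyll, epidermis, vasculature and wounding were summed as cpm. The wounding and touch list summed to between 141 and 779 cpm, highest in replicate 2 of the mutant controls. Alternatives were total-count, RLE and upper quartile scaling, other filters, DESeq2 1.42.0, fits of only the libraries compared, a replicate block and leaving out each library.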

Additional observations from a re-analysis of the deposited data

Results flagged for a closer look

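For 4 of the 9 proline genes the response to ABA differed between materials or genotypes by a test of the difference itself in edgeR, 2 of them for guard cells and 4 for the mutant, where 15.0% and 35.1% of all tested loci were called. For P5CS1 the log2 response of guard cell preparations minus that of wild-type leaves was -3.05 (SE 0.26, adjusted p = 4.72e-05), and that of abf1/2/3/4 leaves minus wild-type leaves was -3.50 (SE 0.26, adjusted p = 5.79e-06). For OAT the corresponding differences were -0.55 (SE 0.15, adjusted p = 0.0352) and -0.62 (SE 0.16, adjusted p = 0.00933). For P5CS2 the genotype difference was -1.50 (SE 0.16, adjusted p = 4.13e-05), and for P5CDH it was -0.39 (SE 0.12, adjusted p = 0.0235). Both sets of differences rest on the same 4 wild-type leaf libraries, so they are not independent of each other. The OAT call for guard cells and the P5CDH call did not hold in every fit that left out a library. In those fits the guard cell difference of OAT ranged from -0.63 to -0.45 and the genotype difference of P5CDH from -0.51 to -0.25. Groups of 2 libraries are too small for a check of single outlying samples.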

How the results depend on the processing

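Each result of the 9 genes in the 9 comparisons was recomputed under 20 other settings, 1620 values in all. Of these, 1487 kept their direction and their side of the threshold, 66 kept their direction but lost the call, 35 gained one and 32 changed sign, none of them in a result called under the main settings. The P5CS1 and P5CS2 responses to ABA in wild-type leaves, guard cells and mutant leaves, and both P5CS1 differences between responses, were called under all 20. The cause of the changes below was not tested.

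The number of members called changed by over 1.5 times in these cases. ABA in mutant leaves went from 6 to 3 with only the libraries compared. Mutant against wild-type leaves at control went from 1 to 3 with upper quartile scaling, 2 with no filter beyond 1 count, 2 with DESeq2 and 0 in a fit restricted to its own libraries, and from 0 to 4 when single libraries were left out. The guard cell difference in response, 2 members, ranged from 1 to 3 without single libraries. Leaving out a library leaves that group with 1, which is then assumed to vary like the other groups.

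Signs changed as follows with total-count scaling: PROT1 with ABA in wild-type leaves (-0.13), guard cells against leaves at control for PRODH1 (0.31), P5CDH (0.32, adjusted p = 0.00595) and PROT2 (0.23), and with ABA for P5CDH (0.03) and OAT (0.08), and mutant against wild-type leaves for P5CDH at control (0.05) and PRODH1 with ABA (0.07). Upper quartile scaling turned PROT1 in wild-type leaves (-0.08) and, for guard cells against leaves at control, PRODH1 (0.05) and P5CDH (0.07), the last also with a mean of at least 50 counts (0.01). Total-count scaling moved the median of all loci to -0.32 for ABA in guard cells, -0.22 in leaves of the wild type and -0.14 in those of the mutant, and to 0.37 and 0.24 for guard cells against leaves at control and with ABA. Leaving out single libraries gave ranges that cross 0 for ABA in guard cells of PRODH1 (-0.18 to 0.13), in leaves of PROT1 (-0.08 to 0.10), and in the mutant of PRODH1 (-0.45 to 0.11) and PRODH2 (-0.08 to 0.37); for the guard cell difference in response of PRODH2 (-0.46 to 0.28) and PROT1 (-0.17 to 0.00) and the genotype difference of PROT2 (-0.32 to 0.17); for guard cells against leaves at control of PRODH1 (-0.25 to 0.07); and for mutant against wild-type leaves at control of P5CR (-0.04 to 0.10) and P5CDH (-0.22 to 0.05) and with ABA of PRODH2 (-0.09 to 0.57) and PROT1 (-0.03 to 0.16).

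With the replicate number as a block the counts of called members were 7, 8 and 6 for the ABA responses (guard cells, then leaves of the wild type and of the mutant), 2 and 4 for the differences in response, 5 and 6 for guard cells against leaves, and 1 and 6 for the mutant against the wild type, and no call changed. Deviations of same-numbered libraries correlated between -0.15 and 0.19 over 15 pairs of groups, so the numbers were not taken to pair the samples. At the lowest levels, PRODH2 had 214 to 582 counts per library, which limits how small a change in it can be called.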
